A study of Mus musculus with 8 samples.

Results

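The guanylate-binding proteins measured here are the products of 8 mouse genes, Gbp2, Gbp3, Gbp4, Gbp5, Gbp6, Gbp7, Gbp8 and Gbp9, chosen by symbol from the 55450 genes of a table of RNA counts. All 8 passed the filter on low counts that left 16911 genes for testing. The RNA came from 8 tumours of MOC1, an established mouse carcinoma line of the mouth, placed in the flank of C57BL/6 mice; the labels name tongue carcinoma as the source. All 8 tumours had been under anti-PD-1, which blocks an inhibitory receptor of T cells, and under antisense oligonucleotides (ASOs), short synthetic strands that bind a chosen transcript, for 32 days. In 5 tumours the ASOs were directed at Smyd3, a lysine methyltransferase, and in 3 they were control ASOs. Of the 5 Smyd3 ASO tumours, those numbered 1 and 3 were marked as responders, number 2 carried no response mark, and 2 were marked as non-responders. The non-responders have no number in the labels and are called 1 and 2 by the order in which they are listed. The labels list 8 tumours without saying that each came from its own mouse, so p-values measure the spread between these samples. Response is an outcome and was not assigned, and no tumour without anti-PD-1 was included.

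Guanylate-binding proteins are large GTPases of the dynamin superfamily that are induced in many cell types by interferon gamma, and less strongly by type I interferons. Gamma-activated sites (GAS) and interferon-stimulated response elements (ISRE), to which IRF1 binds, take part in switching the genes on. The proteins assemble on the membranes of vacuoles that hold intracellular pathogens and on the surface of bacteria, help to break them open, and feed their contents to inflammasomes. In tumours their transcripts are widely used as a sign that cells have met interferon gamma. Bulk RNA cannot tell which cells the transcripts came from.

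The genes lie in a pair of clusters. On mm10 chromosome 3 (142493978 to 142638008, plus strand) stand Gbp5, Gbp7, Gbp3, Gbp2b and Gbp2, in that order, and 4 of these 5 are among the 8 members. On chromosome 5 (105014150 to 105346472, minus strand) stand Gbp8, Gbp9, Gbp4, Gbp10, Gbp6 and Gbp11, of which 4 of 6 are members. The promoter windows of the 4 chromosome 3 members, from RefSeq on GRCm38.p6, reach from 250 bases before to 50 after the annotated start and are shown because these genes share elements at which interferon signalling is known to act. They are written 5′ to 3′ on the plus strand, and capitals mark the ISRE core, GAAA and GAAA with any 2 bases between them, read on either strand and so also as TTTC and TTTC, and the GAS core TTCNNNGAA, which is its own reverse complement.
Gbp2 (chr3:142620413-142620712): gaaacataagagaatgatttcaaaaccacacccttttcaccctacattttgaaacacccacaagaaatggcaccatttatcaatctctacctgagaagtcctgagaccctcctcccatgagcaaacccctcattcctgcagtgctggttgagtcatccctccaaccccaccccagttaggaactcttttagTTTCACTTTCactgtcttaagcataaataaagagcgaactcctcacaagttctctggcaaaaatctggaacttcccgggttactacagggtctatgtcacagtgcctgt
Gbp3 (chr3:142559794-142560093): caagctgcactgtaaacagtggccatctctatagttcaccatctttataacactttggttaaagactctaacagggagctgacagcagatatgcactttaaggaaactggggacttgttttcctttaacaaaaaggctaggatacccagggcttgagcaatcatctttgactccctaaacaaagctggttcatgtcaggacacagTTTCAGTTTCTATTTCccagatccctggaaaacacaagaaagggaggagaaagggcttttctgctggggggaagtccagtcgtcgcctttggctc
Gbp5 (chr3:142496684-142496983): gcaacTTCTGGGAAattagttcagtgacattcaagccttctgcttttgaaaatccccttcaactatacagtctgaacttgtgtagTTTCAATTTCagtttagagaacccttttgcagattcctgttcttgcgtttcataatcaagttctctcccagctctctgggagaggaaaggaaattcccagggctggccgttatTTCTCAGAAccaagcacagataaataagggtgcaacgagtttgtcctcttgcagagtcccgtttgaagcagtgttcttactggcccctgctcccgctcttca
Gbp7 (chr3:142530086-142530385): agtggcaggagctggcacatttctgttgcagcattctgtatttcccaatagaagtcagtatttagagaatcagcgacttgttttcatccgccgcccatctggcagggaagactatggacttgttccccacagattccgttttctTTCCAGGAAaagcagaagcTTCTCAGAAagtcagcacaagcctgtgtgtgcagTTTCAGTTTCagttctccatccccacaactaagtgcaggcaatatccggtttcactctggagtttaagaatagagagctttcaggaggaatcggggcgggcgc

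Each of these 4 windows held the ISRE core. Bases are counted from the annotated start, with negative numbers before it. In Gbp2 it was TTTCACTTTC at -59 to -50, in Gbp7 TTTCAGTTTC at -53 to -44, and in Gbp5 TTTCAATTTC at -165 to -156. Gbp3 held 2 matches that overlap each other, TTTCAGTTTC at -45 to -36 and TTTCTATTTC at -39 to -30, and a second annotated Gbp3 window, chr3:142560106-142560405, held neither motif. The GAS core was found in Gbp5, as TTCTGGGAA at -245 to -237 and TTCTCAGAA at -52 to -44, and in Gbp7, as TTCCAGGAA at -106 to -98 and TTCTCAGAA at -87 to -79. No ISRE match overlapped a GAS match. The window of Gbp2b, a neighbour outside the 8, is not shown. It also held the ISRE core, as TTTCACTTTC at -137 to -128, and no GAS core. Of all 32851 promoter windows of this length in the table, 3.44% held the ISRE core, 8.30% the GAS core and 0.454% both. A match is a string of letters and was not tested as a site. Gbp4, Gbp6, Gbp8 and Gbp9 have no window shown.

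The libraries held 22103853 to 27258700 expected counts, and the 8 members together took 0.132% to 0.322% of them in Smyd3 ASO tumours and 0.0758% to 0.104% in controls. Smyd3 itself stood at 8.68 and 4.38 CPM (reads scaled to a common library size with TMM) in responders 1 and 3, 4.58 in the unmarked tumour, and 9.26 and 4.88 in non-responders 1 and 2, against 10.7, 11.9 and 10.6 in controls. Each Smyd3 ASO tumour was below each control (exact permutation test over 56 splits, two-sided p = 0.0357). Responder 1 and non-responder 1 kept 78.4% and 83.6% of the control mean, whereas the other 3 Smyd3 ASO tumours were at 39.6% to 44.0%. The 7 carcinoma epithelium markers, such as Krt5 and Krt14, summed to 15228 to 30655 CPM in Smyd3 ASO tumours and to 23226 to 30606 CPM in controls. The labelled carcinoma was thus present in both arms. All 7 single markers had a log2 fold change under 0 between the arms (median -0.29), and in 0 of the 7 were the arms separate. Tumours also differed in host tissue. The 7 skeletal muscle markers summed to 508 to 8476 CPM in Smyd3 ASO tumours and 29.1 to 71.2 CPM in controls, without overlap in any of the 7. The 6 fibroblast markers summed to 2629 to 4038 CPM in Smyd3 ASO tumours and 4106 to 7836 CPM in controls, most of it from Col1a1 and Col3a1. The single markers were mixed: 3 of the 6 had a log2 fold change above 0. In 2 of the 6 the arms did not overlap, with controls on top.

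Smyd3 ASO tumours were set against control ASO tumours to ask how GBP transcripts differ between the arms under anti-PD-1. All 8 members were higher in the Smyd3 ASO arm, by a fitted 2.14-fold (Gbp9) to 3.98-fold (Gbp4). All log2 fold changes were above 0, beside 51.8% of all tested genes. The arms did not overlap in 7 of the 8, beside 5.45% of genes with the Smyd3 ASO arm on top, and Gbp5 was the exception. No member passed the false discovery rate (FDR) of 0.05 in the edgeR fit over all genes, in which 0% of genes were called in either direction. The FDR of the members lay between 0.0656 and 0.121, and all 8 had an unadjusted p under 0.05, as 8.55% of all genes had in this direction. DESeq2 called all 8 among 1053 of 16911 genes, and limma voom with sample quality weights all 8 among 154. Leaving out non-responder 1, the lowest Smyd3 ASO tumour in all 8 members, brought all 8 past the threshold in edgeR, among 258 of 16868 genes, with FDR from 0.00344 to 0.0367. Leaving out any other single library gave 0 members, with FDR from 0.0953 to 0.308.

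**Figure D1:**
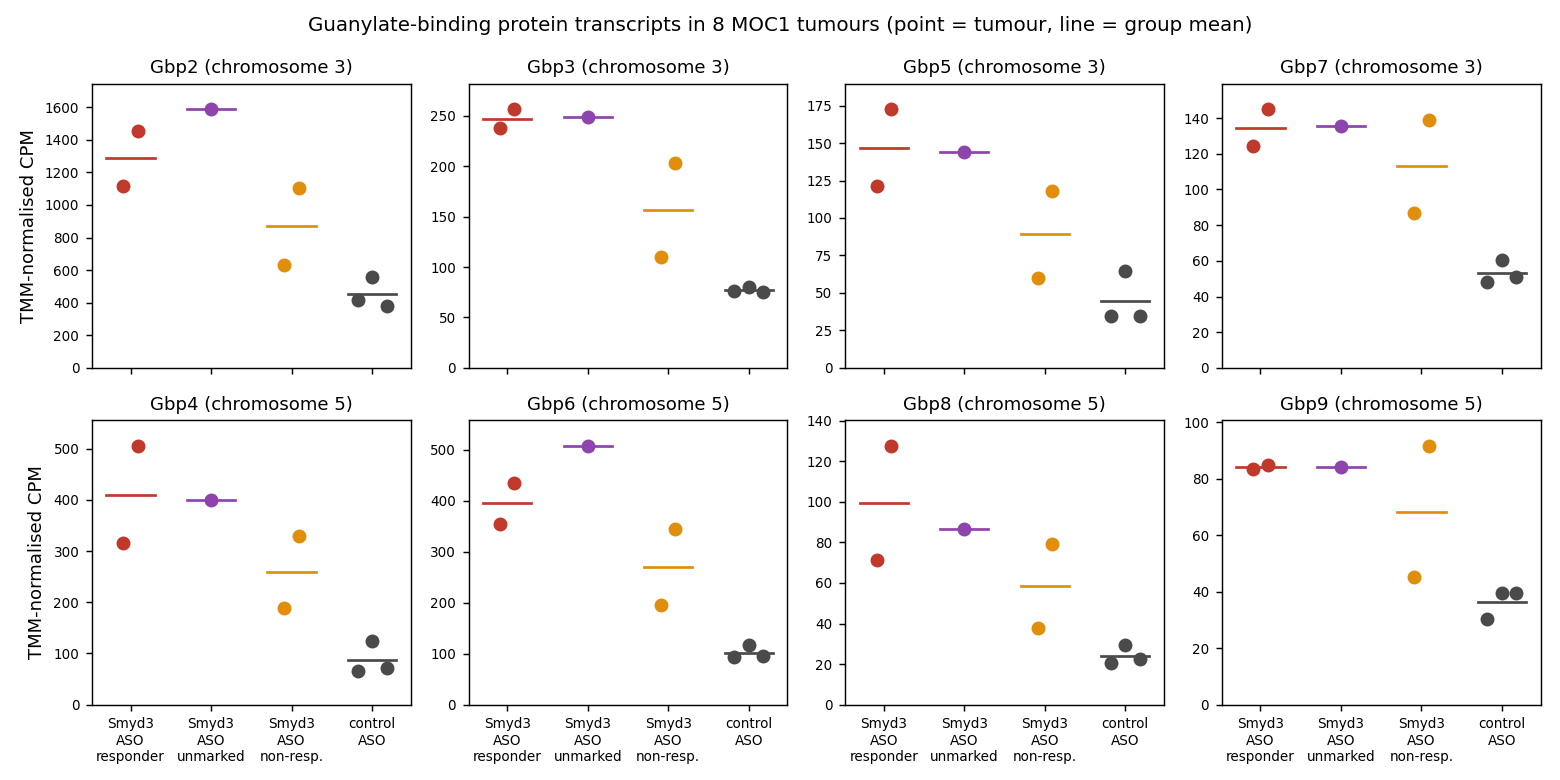
CPM of each member (linear axis from 0) in the 8 tumours, by group, with 1 point per tumour and a line at the group mean. Non-responder 1 is the lowest Smyd3 ASO tumour in all 8 panels, and the Smyd3 ASO points lie above the control points except for Gbp5, where non-responder 1 (59.8 CPM) lies under control 2 (64.7 CPM).

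Gbp2 (chromosome 3, 142620602 to 142638008), which in mouse macrophages is carried to pathogen vacuoles by a lipid anchor and helps to activate the AIM2 and caspase-11 inflammasomes, was the most abundant. It stood at 1117 and 1456 CPM in responders 1 and 3, 1586 CPM in the unmarked tumour, and 634 and 1106 CPM in non-responders 1 and 2, against 416, 561 and 379.5 CPM in controls. Non-responder 1 was nearest to the controls, and the arms did not overlap. Its log2 fold change of 1.38 (SE 0.29) had an FDR of 0.0962. Gbp5 (142493978 to 142522344), the other member of the chromosome 3 group known to carry a lipid anchor and an aid to inflammasome assembly in mouse, stood at 121 and 172 CPM in responders, 144 CPM in the unmarked tumour, and 59.8 and 118 CPM in non-responders, against 34.7, 64.7 and 34.5 CPM in controls. Control 2 was above non-responder 1. At 1.46 (SE 0.36), its log2 fold change had the highest FDR of the 8, 0.121.

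Gbp3 (142560026 to 142573209), linked in mouse to killing of cytosolic bacteria and AIM2 activation, was at 238 and 256 CPM in responders, 248 CPM in the unmarked tumour, and 109 and 203 CPM in non-responders, against 76.6, 80.4 and 75.4 CPM in controls. The 3 controls were nearly equal, and non-responder 1 lay apart from the other 4 Smyd3 ASO tumours. Gbp7 (142530342 to 142550149), which in mouse takes part in host defence and the oxidative burst of macrophages, was at 124 and 145 CPM in responders, 136 CPM in the unmarked tumour, and 86.7 and 139 CPM in non-responders, against 48.1, 60.5 and 50.7 CPM in controls. It had the smallest p of the 8, ranking 10th of the 16911 genes, with a log2 fold change of 1.25 (SE 0.18) and an FDR of 0.0656. The fold for Gbp3 was 1.45 (SE 0.26) on the log2 scale with an FDR of 0.0910.

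On chromosome 5, Gbp4 (105115767 to 105139586), described in mouse as a brake on IRF7-driven antiviral signalling, had the largest log2 fold change of the 8 members. It was at 315 and 505 CPM in responders, 399 CPM in the unmarked tumour, and 189 and 329.9 CPM in non-responders, against 65.2, 125 and 71.9 CPM in controls. On the log2 scale the difference was 1.99 (SE 0.35, FDR 0.0875). Gbp6 (105270702 to 105293698), a member recruited to the vacuole of Toxoplasma in mouse cells, was at 355 and 435 CPM in responders, 507 CPM in the unmarked tumour, and 195 and 345.5 CPM in non-responders, against 94.3, 118 and 95.1 CPM in controls. The control values lay in a narrow band, and all 5 Smyd3 ASO tumours were above it. On the log2 scale the difference was 1.84 (SE 0.29, FDR 0.0671).

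Gbp8 (105014150 to 105139540) was at 71.1 and 127 CPM in responders, 86.6 CPM in the unmarked tumour, and 37.7 and 79.1 CPM in non-responders, against 20.5, 29.3 and 22.6 CPM in controls. Gbp9 (105077630 to 105139539), placed in the same cluster, was at 83.5 and 84.9 CPM in responders, 84.0 CPM in the unmarked tumour, and 45.2 and 91.4 CPM in non-responders, against 30.2, 39.5 and 39.5 CPM in controls. In both genes the arms were separate, and non-responder 1 was again the lowest of its arm. Log2 fold changes were 1.74 (SE 0.35) for Gbp8 and 1.09 (SE 0.23) for Gbp9, with FDR of 0.0939 and 0.0962. Gbp9 reached its highest value in non-responder 2, unlike the other members.

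The GBP genes outside the 8 behaved unevenly. Gbp10, the neighbour of Gbp6, was at 31.8 and 56.3 CPM in responders, 47.2 CPM in the unmarked tumour, and 15.2 and 33.5 CPM in non-responders, against 4.99, 10.3 and 4.63 CPM in controls, without overlap. Its log2 fold change of 2.47 (SE 0.46) was above that of each member and had an FDR of 0.0939. Gbp2b, the gene next to Gbp2, averaged 3.92 ± 2.20 CPM in Smyd3 ASO tumours and 3.49 ± 3.12 CPM in controls (SD, n = 5 and 3), with a log2 fold change of 0.17 (SE 0.61). Control 2, at 7.09 CPM, was the second highest of the 8 tumours after responder 3, at 7.5 CPM. Gbp11 was lower still, at 1.42 ± 0.638 CPM in Smyd3 ASO tumours and 0.631 ± 0.769 CPM in controls, which is 12.2 to 63.7 and 3.07 to 33.7 expected counts. The difference between Gbp2b and the members was not tested.

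Some of these genes share sequence, which limits how far single members can be told apart. Of the distinct 50-base stretches in the annotated transcripts of Gbp6, 70.7% also occurred in another gene, mostly in Gm43302, which overlaps it on the same strand, and in Gbp10 this share was 84.1%. The share was 18.1% for Gbp8, 12.7% for Gbp7 and 1.44% to 8.05% for the other 5 members. Gm43302 averaged 28.2 ± 10.9 CPM in Smyd3 ASO tumours and 5.66 ± 3.31 CPM in controls. With Gbp6, Gbp10 and Gm43302 summed to 1 gene, a choice made after seeing the data, the log2 fold change was 1.92 with an FDR of 0.0757, beside 1.84 for Gbp6 alone. Gbp8, Gbp9 and Gbp4 also overlap on the same strand.

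Responders were set against controls to describe the tumours in which the combination was recorded as effective. Fold changes ran from 2.31 (Gbp9) to 4.69 (Gbp4), all above 1 as in 50.4% of all tested genes. In edgeR 5 of the 8 rose past the FDR threshold, beside 1.38% of genes upward and 1.66% in either direction. All 8 had an unadjusted p under 0.05, beside 9.62% of genes upward. These 5 were Gbp6 (log2 fold change 1.95, SE 0.25, FDR 0.0245), Gbp3 (1.67, SE 0.24, FDR 0.0276), Gbp7 (1.34, SE 0.21, FDR 0.0355), Gbp4 (2.23, SE 0.37, FDR 0.0401) and Gbp8 (2.04, SE 0.36, FDR 0.0477). Gbp2, Gbp5 and Gbp9 did not pass, with log2 fold changes of 1.51, 1.72 and 1.21 and FDR of 0.0522, 0.0885 and 0.0939. Gbp10 passed as well (log2 fold change 2.73, FDR 0.0473). In all 8 members both responders exceeded all 3 controls, as 18.8% of all tested genes did. The count of 5 members fell to 0 without control 1 or without control 3, and to 2 without control 2. It was 6 (of 169 genes called) without non-responder 1, 4 (of 134) without non-responder 2, 8 (of 1153) in DESeq2 and 7 (of 306) in voom. Of all genes, 0 passed without control 1, 6 without control 3 and 107 without control 2, beside 280 in the full fit, so calls of other genes also depended on single controls. Leaving out a responder leaves 1 in that group, and the median log2 fold change of the members was then 1.83 without responder 1 and 1.49 without responder 3.

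Non-responders were set against the same 3 controls, so the 2 comparisons are not independent. The members had log2 fold changes of 0.91 (Gbp9) to 1.57 (Gbp4) with a median of 1.05, where the median of all tested genes was 0.0084 and 51.1% lay above 0. In edgeR 0 of the 8 passed, as 0% of all genes did, and their FDR lay between 0.2796 and 0.503. All 8 had an unadjusted p under 0.05, beside 5.10% of all genes in this direction. DESeq2 called 5 of the 8 among 335 of 16911 genes, and voom called 0 members and 0 genes. Both non-responders exceeded all controls in 7 of 8 members, beside 12.2% of all genes, and Gbp5 overlapped. The median was 0.57 without non-responder 2 and 1.40 without non-responder 1.

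Within the Smyd3 ASO arm, responders were set against non-responders. In edgeR 0 of the 8 members passed, as 0% of all genes did. Log2 fold changes ran from 0.25 (Gbp7) to 0.77 (Gbp8), above 0 as in 51.6% of all genes, with FDR from 0.574 to 0.808. Gbp3 had an unadjusted p of 0.0406 (log2 fold change 0.66, SE 0.26), and the other 7 were over 0.05, so 1 of 8 was under it, beside 4.74% of all genes upward. DESeq2 and voom called 0 members. Responders exceeded non-responders without overlap in Gbp2, Gbp3, Gbp5 and Gbp6, which is 4 of 8, beside 20.3% of all genes. In Gbp4, Gbp7, Gbp8 and Gbp9 non-responder 2 was above responder 1. Without non-responder 1 the log2 fold change became -0.049 for Gbp7 and -0.12 for Gbp9, and the median over the 8 members was 0.25. Without non-responder 2 that median was 1.06.

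**Figure D2:**
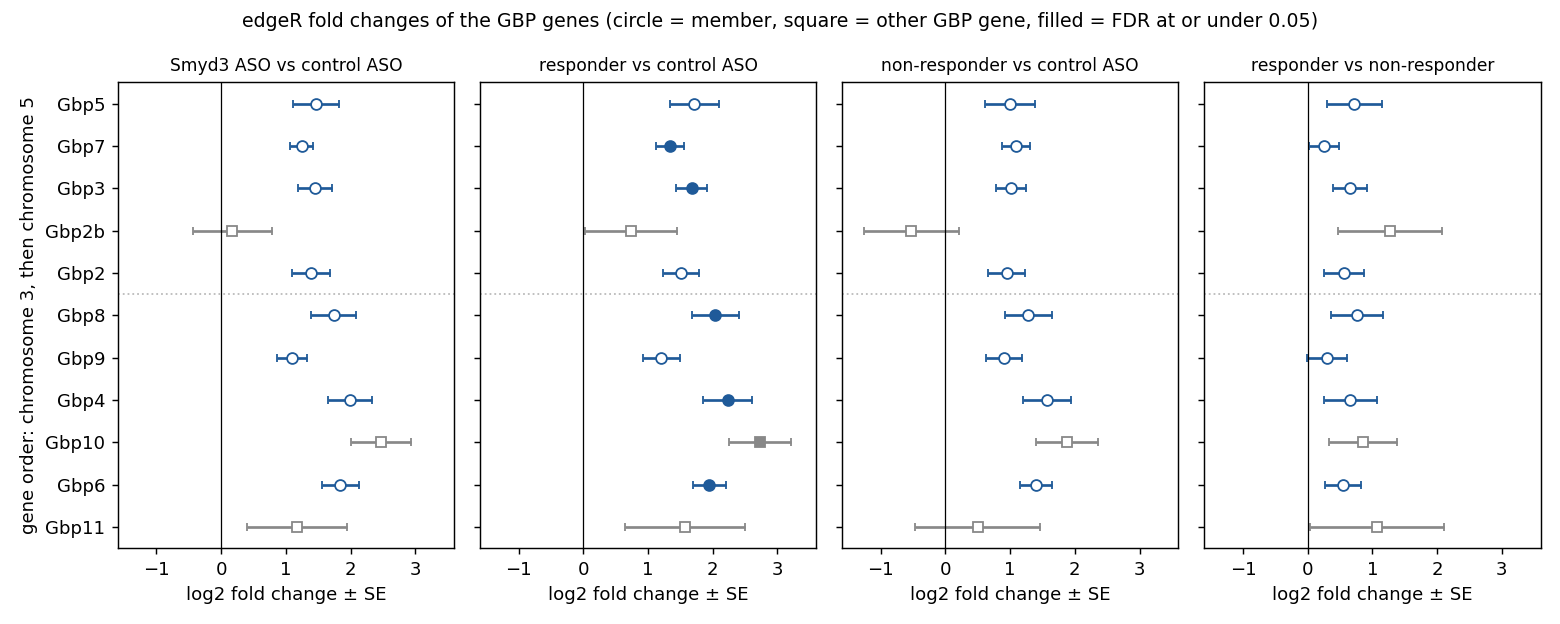
Log2 fold change with its SE for the 11 measured GBP genes in each comparison, in genome order down the page, with the dotted line between chromosome 3 and chromosome 5. Filled symbols mark FDR at or under 0.05, which is found for 5 members and Gbp10 in responders against controls and nowhere else. Gbp2b, with an SE of 0.61 to 0.80, lies left of Gbp3 and Gbp2 against controls and right of them in responders against non-responders.

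The tumours can also be read one by one. Relative to the control mean of each gene, the 8 members had a median of 2.83-fold in responder 1, 3.58-fold in responder 3, 3.37-fold in the unmarked tumour, 1.49-fold in non-responder 1 and 2.64-fold in non-responder 2. All 8 members were above their highest control in 4 of these tumours, and 7 were in non-responder 1. Non-responder 2 was thus near responder 1, and the 2 non-responders were further apart. The tumour with the most Smyd3 transcript, non-responder 1 (83.6% of the control mean), had the lowest GBP levels of the arm, but responder 1 (78.4%) had levels near those of non-responder 2 (44.0%).

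Markers of T, NK and B cells were read in the same tumours. The 5 T cell markers summed to 30.7 and 66.1 CPM in responders, 28.3 CPM in the unmarked tumour, and 16.9 and 24.7 CPM in non-responders, against 11.3, 19.9 and 10.8 CPM in controls, so control 2 was above non-responder 1. The 7 markers of cytotoxic T and NK cells summed to 59.0 and 140.2 CPM in responders, 60.5 CPM in the unmarked tumour, and 27.1 and 51.5 CPM in non-responders, against 13.8, 27.1 and 15.5 CPM in controls. No marker of either list was at 0 in all libraries, and Ncr1, a marker of NK cells, was at 0 in control 1. In 1 of the 5 T cell markers and 2 of the 7 cytotoxic markers the arms did not overlap. The 7 macrophage markers summed to 568 to 1371 CPM in Smyd3 ASO tumours and 605 to 1122 CPM in controls, with 0 of 7 separate. The 5 dendritic cell markers summed to 10.6 to 27.3 CPM in Smyd3 ASO tumours and 5.09 to 12.5 CPM in controls, with 2 of 5 separate, and the adipocyte markers to 30.4 to 262 CPM in Smyd3 ASO tumours and 16.96 to 42.6 CPM in controls. The 4 B cell markers summed to 5.27 and 11.4 CPM in responders, 1.16 CPM in the unmarked tumour, and 1.01 and 3.14 CPM in non-responders, against 1.41, 2.54 and 2.19 CPM in controls. In 4 of these 4 both responders were above all controls and above both non-responders, while the unmarked tumour and non-responder 1 had sums under every control. Of the neutrophil and endothelium markers, 0 were separate between the arms. The part of these cells, and of the muscle difference given above, in the GBP values was not tested. More cells of a kind and more RNA per cell cannot be told apart in bulk tissue.

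Levels between members were compared per length, as CPM per kilobase of merged exons. Gbp2 stood far above the rest, at 469 ± 147 in Smyd3 ASO tumours and 179.7 ± 38.2 in controls (SD, n = 5 and 3). Gbp3 followed at 64.6 ± 18.4 in Smyd3 ASO tumours and 23.7 ± 0.803 in controls, then Gbp6 at 61.7 ± 19.6 and 17.2 ± 2.25, and Gbp4 at 46.4 ± 15.5 and 11.7 ± 4.37, with Smyd3 ASO tumours given before controls. In the Smyd3 ASO arm Gbp3 and Gbp6, and Gbp6 and Gbp4, differed by less than their SD. Gbp8 (23.3 ± 9.36), Gbp7 (22.5 ± 4.14), Gbp5 (18.6 ± 6.26) and Gbp9 (15.04 ± 3.57) formed the lower group in Smyd3 ASO tumours, and each differed from its neighbour in this order by less than the SD. In controls these 4 were at 7.0 ± 1.34, 9.46 ± 1.16, 6.73 ± 2.62 and 7.04 ± 1.04. With the longest transcript as length Gbp6 (86.6) stood above Gbp3 (78.7) in Smyd3 ASO tumours, and Gbp5 (32.8) above Gbp8 (23.8) and Gbp7 (22.5).

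Each member's share of the family total was set beside the total itself. The summed CPM per kilobase was 387.7 to 932 in Smyd3 ASO tumours and 228 to 321 in controls. Gbp2 made up 64.9% ± 1.59 of it in Smyd3 ASO tumours and 68.3% ± 1.84 in controls, with overlap between the arms. Gbp4 took 5.71% to 7.46% in Smyd3 ASO tumours and 3.64% to 5.20% in controls, and Gbp6 took 8.10% to 9.14% and 6.17% to 7.01%, so in both the shares did not overlap. The share of Gbp3 was 9.01% ± 0.884 in Smyd3 ASO tumours and 9.21% ± 1.34 in controls. These shares are a description and were not tested.

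**Figure D3:**
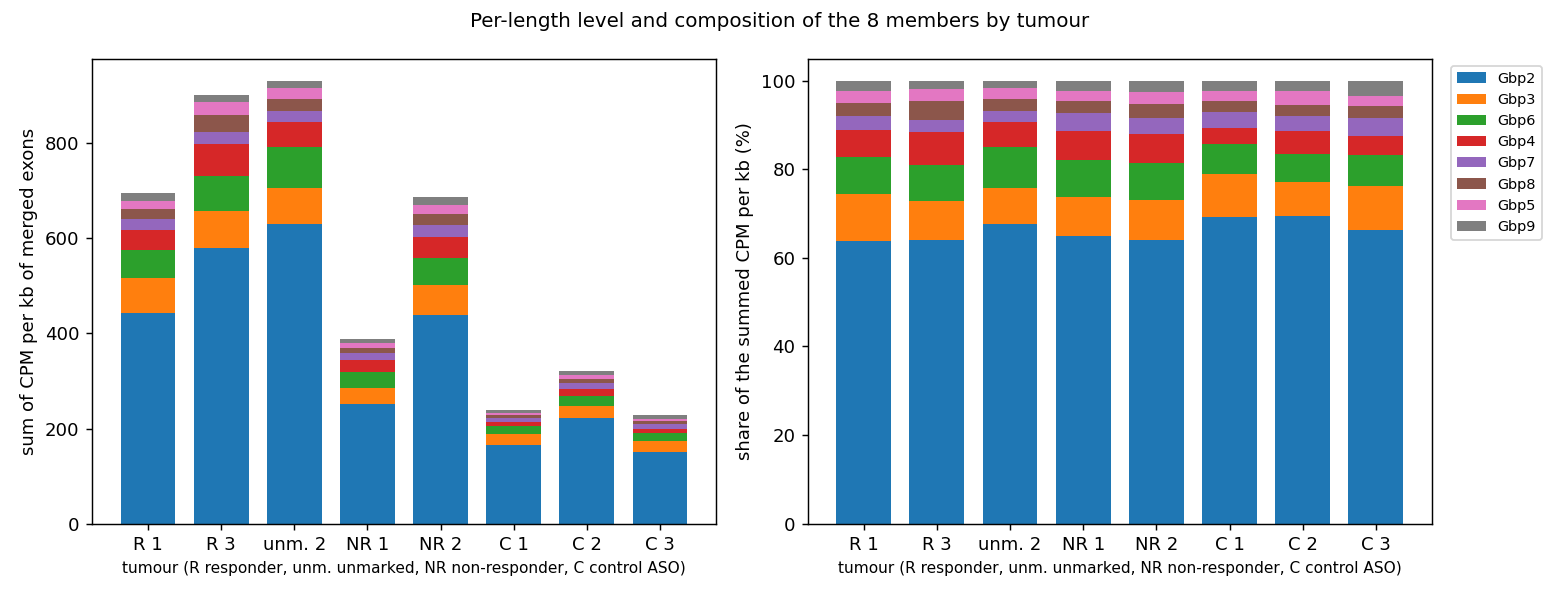
Left, the sum over the 8 members of CPM per kilobase of merged exons in each tumour, and right, the share of each member in that sum. The left bars reach 387.7 to 932 in Smyd3 ASO tumours and 228 to 321 in controls, while Gbp2 fills 63.8% to 69.5% of every right bar.

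Over the 8 tumours the members followed a common course. The root mean square difference between the centred log2 CPM of a member and the mean of the other 7 was smallest for Gbp2 (0.136) and largest for Gbp4 (0.322) and Gbp9 (0.306). The ranking took 13497 other genes whose log2 CPM averaged 0 or more, leaving out provisional symbols such as Gm numbers and Rik names. Among these, the gene nearest to the family mean was Il18bp, which encodes a secreted inhibitor of interleukin-18, at 0.111. It was followed by Iigp1 (0.182) and Tgtp2 (0.196), both interferon-inducible GTPases, and by Psmb10 (0.198), a subunit of the immunoproteasome. Irgm2 (0.204), Igtp (0.214), Batf2 (0.217) and Ifi47 (0.230) came next. Ifng itself, which encodes interferon gamma, was the 9th nearest (0.234). Il18bp averaged 67.9 ± 19.7 CPM in Smyd3 ASO tumours and 26.9 ± 6.64 CPM in controls. These 8 points share the same libraries and arms, so likeness includes the difference between arms.

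**Figure D4:**
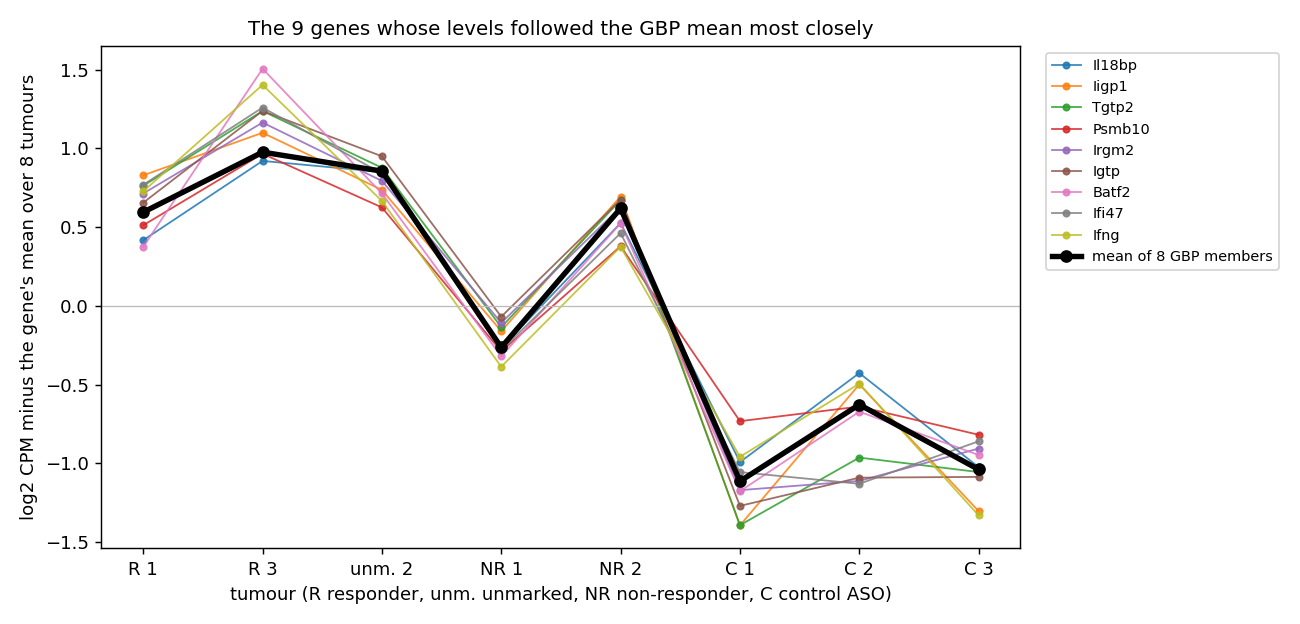
Log2 CPM minus the mean of each gene over the 8 tumours, for the mean of the 8 members (thick line) and for the 9 ranked genes nearest to it, with tumours along the axis. Non-responder 1 dips to -0.26 in the GBP mean, between the other Smyd3 ASO tumours (0.595 to 0.976) and the controls (-1.11 to -0.63).

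Genes upstream of the family differed between ligand, receptor and target. Ifng was at 2.19 and 3.55 CPM in responders, 2.10 CPM in the unmarked tumour, and 0.967 and 1.70 CPM in non-responders, against 0.624, 0.892 and 0.463 CPM in controls. The arms did not overlap, although non-responder 1 and control 2 were close (log2 fold change 1.67, SE 0.46, FDR 0.149). The receptor genes Ifngr1 and Ifngr2 had log2 fold changes of 0.27 and 0.10, and the kinase genes Jak1 and Jak2 -0.15 and 0.07. Irf1 averaged 343 ± 72.5 CPM in Smyd3 ASO tumours and 181 ± 14.9 CPM in controls (log2 fold change 0.92, FDR 0.0939). For interferon gamma signalling, 10 of 11 genes had a log2 fold change above 0 (median 0.27), and 0 passed the FDR threshold in either direction. Of the 11, 4 had an unadjusted p under 0.05 upward, beside 8.55% of all tested genes. Socs1, an inhibitor of this signalling, was among the 4 (0.94, FDR 0.103). In responders against controls Irf1 rose (1.13, FDR 0.0320).

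Of 9 measured genes of type I interferon signalling 5 lay above 0, with a median of 0.32, and 0 passed in either direction. Of the 9, 4 had an unadjusted p under 0.05 upward, beside 8.55% of all tested genes. Stat2, Irf7 and Usp18 had log2 fold changes of 0.95, 1.01 and 1.09 (FDR 0.0999, 0.258 and 0.258), while the receptor gene Ifnar1 was at -0.07. The arms did not overlap in Stat2 and overlapped in Irf7 and Usp18. Ifnb1 did not pass the filter on low counts.

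The next list held 8 immunity-related GTPases (IRG), which work with guanylate-binding proteins on vacuole membranes, and Gvin1, a very large interferon-inducible GTPase of another family. All 9 genes of this list lay above 0 with a median of 1.87, beside 51.8% of all tested genes above 0. All 9 were separate between arms, beside 5.45% of genes with the Smyd3 ASO arm on top. In edgeR 0 passed, as 0% of all genes did. Examples were Tgtp1 (2.04, FDR 0.0656) and Irgm1 (1.84, FDR 0.0865). In responders against controls 9 of 9 rose past the FDR threshold, beside 1.38% of all tested genes upward. Gvin1 had 1.91 (FDR 0.102). The medians of this list and of the members stood beside 0.013 for all tested genes. The reads of Tgtp1 and Tgtp2 are hard to separate, since the genes are near copies.

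GTPases that resemble guanylate-binding proteins in structure gave other values. Of 10 dynamin superfamily relatives 4 lay above 0, with a median of -0.03, and 0 passed. The interferon-induced Mx1 and Mx2 had log2 fold changes of 1.25 and 1.23. The atlastin genes Atl1, Atl2 and Atl3, which shape the endoplasmic reticulum, were at -0.50, 0.05 and -0.23. Of 13 genes of the ATG conjugation system and ubiquitin adaptors, which bring guanylate-binding proteins to vacuoles, 6 lay above 0 with a median of -0.03 and 0 passed. Trim21 had the largest value (0.78, FDR 0.164), and Atg5 and Atg7 were at 0.12 and -0.09. The 6 genes of protein prenylation, which adds the lipid anchors, had a median of 0.05, with 0 passing and none beyond 0.26 in size.

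Downstream, the list of inflammasome and lytic death genes was mixed. Of 16 genes 12 lay above 0 with a median of 0.53, 4 had an unadjusted p under 0.05 upward, and 0 passed. Casp1, the inflammasome protease, averaged 129.7 ± 23.2 CPM in Smyd3 ASO tumours and 80.8 ± 1.184 CPM in controls (log2 fold change 0.68, FDR 0.0999). Zbp1, a sensor of nucleic acids that can start necroptosis, averaged 159 ± 52.6 CPM in Smyd3 ASO tumours and 70.9 ± 7.12 CPM in controls (1.16, FDR 0.122). Il1b and Mlkl had log2 fold changes of 0.89 and 0.63. Aim2, whose sensor is fed by GBP activity in mouse macrophages, was at 14.5 ± 3.75 CPM in Smyd3 ASO tumours and 13.6 ± 5.78 CPM in controls (0.09), and Casp4, the mouse gene of caspase-11, had 0.58 (FDR 0.396). Gsdmd, the pore protein cut by both caspases, had 0.48 (FDR 0.535).

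**Figure D5:**
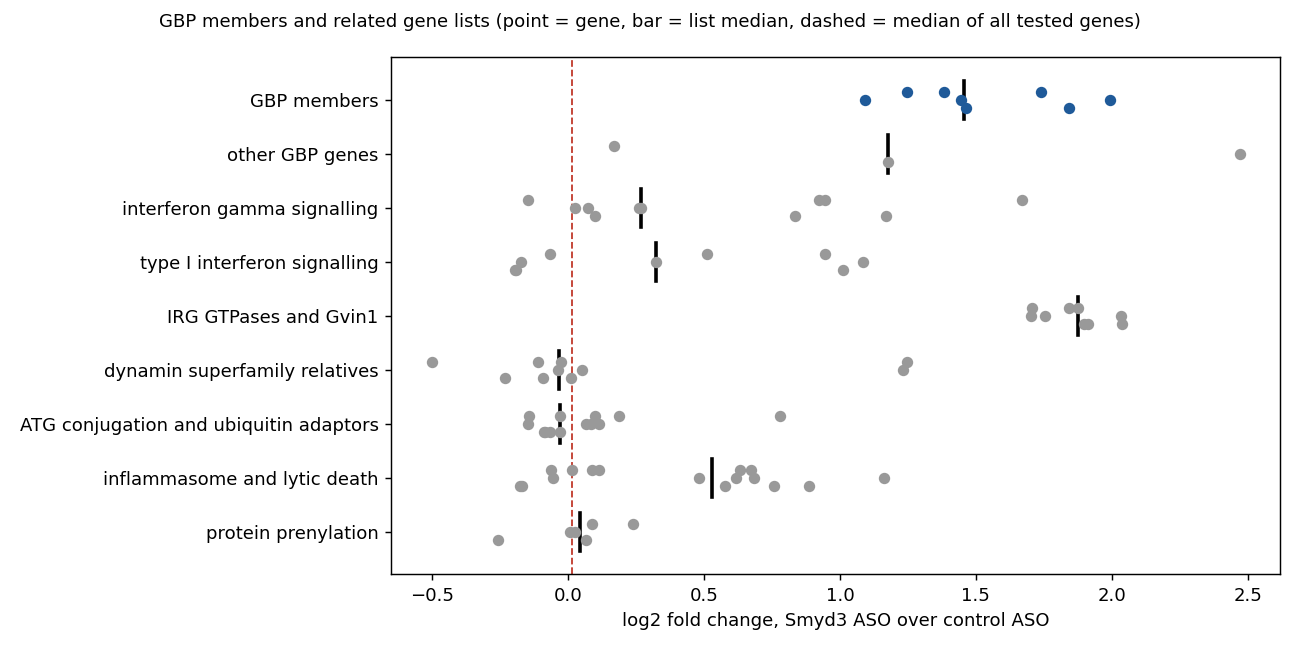
Log2 fold change of Smyd3 ASO over control ASO tumours for each gene of each list, with a bar at the list median and a dashed line at the median of all tested genes (0.013). The members (median 1.46) and the list of IRG and Gvin1 (1.87) lie to the right, and the ATG (-0.03) and prenylation (0.05) lists lie around the dashed line.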

How the data were processed

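The authors deposited RSEM expected counts per gene, with no scaling for depth and a column for each tumour. TruSeq Stranded mRNA libraries were prepared from RNeasy-purified RNA, per the labels' protocols. In the submitters' processing notes stand bcl2fastq 2.17, cutadapt 1.18, STAR 2.7.0f, RSEM 1.3.0 and the build mm10, with no order or settings. RSEM assigns reads that match several genes by estimate, which bears on near-identical GBP genes. All 55450 gene identifiers were found in GENCODE M21, which gave coordinates and lengths.

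Columns were matched to tumours through the sample descriptions. Expected counts were rounded, and genes were kept with 0.424 CPM (10 reads in the median library) in 2 or more libraries and 15 reads in all. Tests used TMM and edgeR 4.0.16 (R 4.3.3; robust quasi-likelihood, two-sided) with Benjamini-Hochberg FDR at 0.05 over all 16911 genes. Smyd3 ASO against control was fitted with treatment alone, and the other 3 contrasts in a model of 4 groups over all 8 libraries. The SE was derived from the log2 fold change and the F statistic. CPM are TMM-scaled with the SD between tumours, and centred log2 CPM used a prior count of 2. Alternatives used DESeq2 1.42.0, limma 3.58.1, RLE factors, no filter, unrounded counts, other sample sets, and each library left out in turn. The steps were tested on simulated counts with 100 genes changed 2-fold and 100 changed 4-fold, all with at least 100 reads at median depth. Apart from these changes the simulated libraries shared the same mean levels, and genes varied independently. No simulated tumour therefore stood apart across many genes at once, and recovery under such a spread was not tested. Smyd3 ASO against control recovered 50% and 93% of these with 6 false calls, and responders against controls 35% and 88% with 17. Non-responders against controls recovered 26% and 84% with 9 false calls, and responders against non-responders 18% and 79% with 3.

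The members and gene lists were chosen with earlier results of these data known. Genes named besides the 8 members followed a rule: other GBP genes, up to 4 genes per list by smallest p, Ifng and Irf1, and the 9 nearest in profile. A gene that the rule also names is not reported here. Receptor, kinase, atlastin, ATG, Aim2, Casp4 and Gsdmd genes, Gm43302, Irgm1 and Gvin1 were named after their values were seen. Markers and lists are described by counts and medians and have no test of their own.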

Additional observations from a re-analysis of the deposited data

Results flagged for a closer look

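Non-responder 1 stood apart from the other 4 Smyd3 ASO tumours in 2 of the 12 genes examined for a far-off sample (the 11 GBP genes and Smyd3). For Gbp3 its log2 CPM was 6.78 and that of the nearest tumour 7.67, a gap of 0.729 of the range of the arm, where Dixon's critical value for 5 samples is 0.71. For Gbp9 its log2 CPM was 5.50 and that of the nearest tumour 6.38, a gap of 0.870 of the range. Chance flags about 1 in 20 such groups, and the genes share the same tumours. Non-responder 1 was the lowest Smyd3 ASO tumour in each of the 8 members, with gaps of 0.519 to 0.701 of the range in the other 6.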

How the results depend on the processing

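All 8 members kept a log2 fold change above 0 in Smyd3 ASO against control, in responders against control and in non-responders against control under each alternative run. Between responders and non-responders Gbp7 and Gbp9 turned, at -0.049 and -0.12 without non-responder 1 and 0.62 and 0.89 without non-responder 2, the ends of their ranges when 1 library is left out. Of 504 values of single members under the alternatives, 414 kept direction and side of the threshold, 61 passed in addition, 27 no longer passed and 2 turned. Whether a member is called depends on the tool and on single libraries, and the cause was not tested.

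For Smyd3 ASO against control (0 members and 0 genes called), DESeq2 called 8 members and 1053 genes, voom with quality weights 8 and 154, the fit without a count filter 2 and 52, and a fit averaging both response groups 0 and 25. Leaving out 1 library each gave 0 to 8 members and 0 to 258 genes. For responders against controls (5 and 280), DESeq2 called 8 and 1153, no count filter gave 499 genes, and the 2 groups alone 180 genes. Single libraries left out gave 0 to 6 members and 0 to 287 genes. For non-responders against controls (0 and 0), DESeq2 called 5 and 335 and no count filter 1 and 32, and libraries left out gave 0 and 0. For responders against non-responders (0 and 0), DESeq2 called 215 genes and no count filter 7, and libraries left out gave 0 members and 0 to 21 genes.

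In the 6 numbered libraries the replicate block gave 7 members and 245 genes, and the same libraries without the block 8 and 286. Neither fit holds the non-responders, and non-responder 1 was the lowest Smyd3 ASO tumour in all 8 members. With the block in responders and controls 1 and 3 the counts were 8 and 818. That fit held no other library and each number once per arm, so little was left to estimate the spread. Same-numbered tumours of the arms had correlations of -0.03, 0.00015 and 0.076 across genes, and tumours with different numbers had -0.15 to 0.14. With 3 libraries per arm, each centred on its arm mean, these values cannot tell whether same-numbered tumours share more than a number. With the longest transcript as length, the mean share over all tumours was 59.7% for Gbp2, 8.40% for Gbp4, 4.04% for Gbp5 and 9.88% for Gbp6, against 66.2%, 5.65%, 2.53% and 7.81%. Depth does not limit the members, whose lowest count was 492, but limits Gbp2b and Gbp11.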
